A study of Mus musculus with 768 samples.

Results

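The transcription factor genes Pou5f1, Sox2 and Nanog, the core factors of the pluripotent state, were followed as 3 of the 27723 genes of a single-cell expression table. They were taken by their symbols, written POU5F1, SOX2 and NANOG in the table, and only cells with at least 2000 genes above 0 were used, 368 of 768 cells. The cells were mouse embryonic stem cells of the line Ainv15(iNgn2.Isl1.Lhx3.V5), in which doxycycline switches on Neurog2 (also called Ngn2), Isl1 and Lhx3, a factor combination that drives such cells towards spinal motor neurons. Embryoid bodies were grown for 2 days, and cells were collected without doxycycline (0 h) or 6, 12, 18, 24, 30, 36 and 48 h after doxycycline at 3 µg/ml. Cells at 0 h carried the same inducible cassette. At each time point 96 viable single cells were sorted into a plate and profiled by SMART-Seq2, which reads whole transcripts and carries no molecular identifiers.

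Pou5f1 encodes Oct4, a POU domain factor, and Sox2 encodes an HMG box factor. The 2 proteins bind side by side to composite elements in the enhancers and promoters of pluripotency genes, their own genes and Nanog among them. Nanog, a homeodomain factor, binds many of the same regions and varies between individual embryonic stem cells. During neural differentiation Pou5f1 and Nanog are shut off, while Sox2 is also a factor of neural progenitors and is lost when neurons form.

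Since no separate cultures are labelled at any time point, every time point counts as 1 sample, which leaves no test of significance. Each SD is a spread between cells that share a sample, and a difference is described by its size, with 2-fold as the size for a call. Levels are TPM, transcript abundances as shares of a cell's total, a unit scaled by transcript length so that genes can be set beside each other. The time points fell into a pair of sets by Sod1, an abundant enzyme gene, whose mean TPM was 518 to 807 in the set of 6, 18, 24 and 30 h and 19553 to 65262 in the set of 0, 12, 36 and 48 h. Comparisons therefore stay within a set. Kept cells numbered 53, 56, 55 and 57 at 6, 18, 24 and 30 h and 37, 52, 44 and 14 at 0, 12, 36 and 48 h. Median genes per kept cell ranged from 6481 to 7484 at 6 to 30 h, but were 5304, 4269, 2894 and 2141 at 0, 12, 36 and 48 h. At 36 and 48 h, 0 kept cells had 4000 genes, and time and depth cannot be told apart in the shares there.

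In the mouse genome build GRCm38 (mm10), annotated by GENCODE M21, Pou5f1 lies on the plus strand of chromosome 17 at 35506018 to 35510772 and its longest transcript has 5 exons and 1362 bases. Sox2 lies on the plus strand of chromosome 3 at 34650405 to 34652461 with 1 exon of 2057 bases, inside the span of the non-coding gene Sox2ot on the same strand. Nanog lies on the plus strand of chromosome 6 at 122707489 to 122714633 with 4 exons and 2211 bases. RefSeq lists 7 Pou5f1 pseudogenes and 2 Nanog pseudogenes. Of these 9 only Pou5f1-rs4 (Gm5712) had its own row, with means of 0 to 0.957 TPM, and no source used here says how reads shared with near-identical copies were assigned, so the values of Pou5f1 and Nanog are uncertain to that extent. Sox2ot had means of 0.276 to 3.38 TPM.

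The 250 bases before each RefSeq start are shown because Pou5f1 and Nanog varied together between cells at 6 to 30 h, as described further on. A link between these bases and that variation was not tested. The RefSeq start is that of GENCODE for Nanog and another one for Pou5f1 and Sox2, and distances count from the RefSeq start. The windows were read from RefSeq promoters of GRCm38.p6, on the given plus strand, at chr17:35505782-35506031 for Pou5f1, chr3:34649745-34649994 for Sox2 and chr6:122707239-122707488 for Nanog. Capitals mark the composite Oct4-Sox2 element (the SOX core CATTGT, any base, then the octamer core ATGCAAA), the octamer core alone and the nuclear receptor half-site AGGTCA, each searched on either strand.
Pou5f1: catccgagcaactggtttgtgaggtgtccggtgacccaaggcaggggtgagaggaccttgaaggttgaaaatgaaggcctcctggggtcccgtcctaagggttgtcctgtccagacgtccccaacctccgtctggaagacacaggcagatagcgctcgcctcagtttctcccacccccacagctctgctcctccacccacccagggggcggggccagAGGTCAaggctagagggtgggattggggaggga
Sox2: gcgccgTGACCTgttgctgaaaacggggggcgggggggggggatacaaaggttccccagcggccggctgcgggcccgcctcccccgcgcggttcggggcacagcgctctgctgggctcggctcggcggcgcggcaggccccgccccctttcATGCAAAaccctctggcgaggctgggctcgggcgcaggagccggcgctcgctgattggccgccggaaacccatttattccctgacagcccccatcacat
Nanog: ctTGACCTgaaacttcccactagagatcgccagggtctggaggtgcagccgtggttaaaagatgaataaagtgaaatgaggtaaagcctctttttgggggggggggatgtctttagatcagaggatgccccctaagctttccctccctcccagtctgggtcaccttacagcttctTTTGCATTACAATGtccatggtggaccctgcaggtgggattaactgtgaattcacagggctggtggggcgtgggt

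The Nanog promoter held the whole composite element, on the reverse strand as TTTGCATTACAATG, 75 to 62 bases before its start. Of 27025 RefSeq mouse promoter windows of the same length, this spelling occurred in 1 (0.0037%), which was that of Nanog. Nanog is among the genes already known to carry such an element, and variant spellings were not searched. The count is therefore no finding about Nanog. The match contains an octamer core, present in 4.07% of windows, and a SOX core, present in 10.9%. The Sox2 window held an octamer core 99 to 93 bases before the start and no SOX core. The Pou5f1 window held neither, and had the nuclear receptor half-site 33 to 28 bases before the start, present in 13.8% of windows, beside a GC box GGGCGG at 45 to 40 bases, present in 33.0%. The Sox2 and Nanog windows also held the half-site, farther from the start, at 244 to 239 and at 248 to 243 bases. GC boxes stood in the Sox2 window too, at 223 to 218 and 111 to 106 bases, and none in the Nanog window. A match describes letters in this window and no binding was measured.

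Pou5f1 was the most abundant core factor from 6 to 24 h, and its level was lower at every later time point than at 6 h. At 6 h the 53 cells ranged from 0 to 845 TPM with a median of 316. At 18 h the 56 cells ranged from 0 to 322 TPM with a median of 43.6, at 24 h the 55 cells from 0 to 1097 with a median of 59.3, and at 30 h the 57 cells from 0 to 456 with a median of 10.5. The ranges overlapped at all 4 times, and what differed was how many cells sat high: 38, 10, 16 and 9 cells had at least 100 TPM at 6, 18, 24 and 30 h.

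The mean Pou5f1 level was 70.1 ± 80.4 TPM at 18 h, 115 ± 196 at 24 h and 53.4 ± 100.5 at 30 h, against 307 ± 225 TPM at 6 h. On the log2(mean + 1) scale it was 2.12 lower at 18 h than at 6 h (log2 fold change -2.12). Of 6083 genes that passed the filter on low values, 7.36% were at least 2-fold lower in that comparison and 11.8% at least 2-fold higher. At 24 h against 6 h the log2 fold change was -1.40, where 6.28% of genes were at least 2-fold lower and 13.5% higher, and at 30 h against 6 h it was -2.50, or 5.66-fold lower, where 6.03% of 6317 genes were. Over all genes that passed, the median at 30 h against 6 h was 0.20. Taken from the medians over cells instead of the means, the log2 fold change at 30 h against 6 h was -4.78. The 30 h median of 10.5 TPM was also the lowest value above 0 at 30 h, so this figure rests on the edge of detection.

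The path of Pou5f1 from 6 to 30 h was not even. The mean was higher at 24 h than at 18 h by 0.71 on the log2 scale, below 2-fold, where 6.4% of 6357 genes were at least 2-fold lower and 9.05% higher. The 24 h cell with 1097 TPM gave 17.3% of the 24 h sum, without which the mean was 97.3 TPM. Gapdh, a glycolytic enzyme gene used as a check, also had a lower mean at 18 h (5409 TPM) than at 6 h (11474) and 24 h (9241). Sod1 did too (594 TPM at 18 h, 731 at 6 h, 807 at 24 h), while Hprt was higher at 18 h (71.8 TPM) than at 6 h (14.1). The part of the plates in this course was not tested. At 30 h against 24 h the log2 fold change was -1.10, where 1.91% of 6344 genes were at least 2-fold lower and 2.3% higher. In rank, Pou5f1 stood at place 2005 of 17297 genes with any signal by mean TPM at 30 h, against place 439 of 17659 at 6 h.

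Pou5f1 differed both in how many cells showed it and in how much those cells held. It was above 0 in 51 of 53 cells at 6 h (96.2%, exact 95% interval 87.0 to 99.5%), 50 of 56 at 18 h (89.3%, 78.1 to 96.0%), 42 of 55 at 24 h (76.4%, 63.0 to 86.8%) and 29 of 57 at 30 h (50.9%, 37.3 to 64.4%). The intervals are Clopper-Pearson intervals and cover counting error only. Between 6 and 18 h the share differed by little while the median of the cells above 0 was 54.6 TPM at 18 h against 326 TPM at 6 h. At 30 h, the median of the cells above 0 was 42.6 TPM, against 85.2 TPM at 24 h. Hprt, a housekeeping gene of purine salvage used here as a check of depth, was above 0 in 60.4%, 67.9%, 63.6% and 59.6% of cells at 6, 18, 24 and 30 h. Its mean was 14.1, 71.8, 77.3 and 55.5 TPM at those times, so its like shares do not show that detection was equal.

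**Figure D1:**
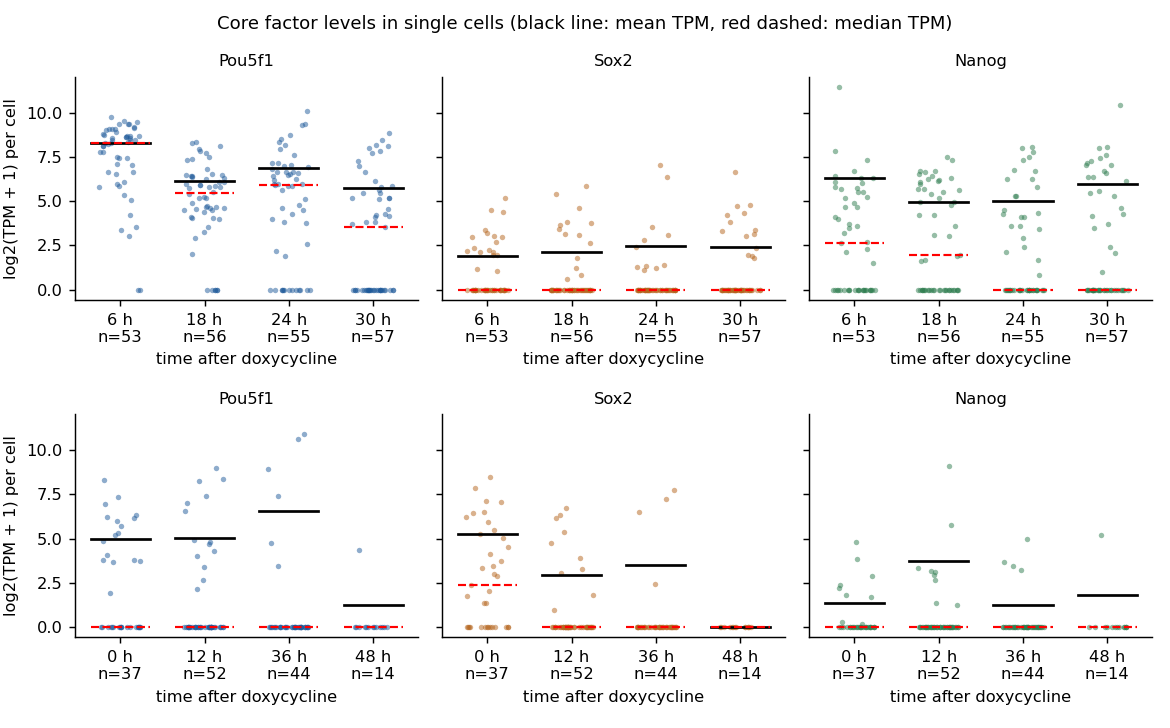
Each point is 1 kept cell, the y axis is log2(TPM + 1), and the x axis gives hours after doxycycline with the number of cells, for Pou5f1, Sox2 and Nanog from left to right. The upper row holds 6, 18, 24 and 30 h and the lower row 0, 12, 36 and 48 h; black lines are means and red dashed lines medians of TPM. The Pou5f1 median is 10.5 TPM at 30 h and 316 TPM at 6 h, while the medians of Sox2 are 0 at all 4 of these times.

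The share of cells with Nanog differed little from 6 to 30 h. Cells above 0 numbered 30 of 53 at 6 h (56.6%, 42.3 to 70.2%), 31 of 56 at 18 h (55.4%, 41.5 to 68.7%), 25 of 55 at 24 h (45.5%, 32.0 to 59.4%) and 25 of 57 at 30 h (43.9%, 30.7 to 57.6%). All 4 intervals overlap. In cells above 0 the median was 36.3, 47.8, 22.0 and 81.3 TPM at 6, 18, 24 and 30 h, with no steady course.

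The mean of Nanog rested on single cells at 6 h and 30 h. Its cells ranged from 0 to 2749 TPM at 6 h, 0 to 182 at 18 h, 0 to 270 at 24 h and 0 to 1398 at 30 h, with medians of 5.29, 2.84, 0 and 0 TPM. The means were 29.8 ± 42.7 TPM at 18 h, 31.3 ± 65.9 at 24 h and 61.2 ± 192 at 30 h, against 77.4 ± 377 TPM at 6 h. The cell with 2749 TPM gave 67.0% of the 6 h sum, and without the highest cell of each time point the means were 27.1 TPM at 18 h, 26.9 at 24 h and 37.3 at 30 h, against 26.1 at 6 h. The log2 fold changes of -1.35 at 18 h and -1.28 at 24 h against 6 h passed 2-fold only through that cell. At 30 h against 6 h the log2 fold change was -0.33, and 0.50 without the highest cells, so the mean of Nanog gave no stable direction.

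Sox2 was low from 6 to 30 h. Cells above 0 numbered 18 of 53 at 6 h (34.0%, 21.5 to 48.3%), 14 of 56 at 18 h (25.0%, 14.4 to 38.4%), 11 of 55 at 24 h (20.0%, 10.4 to 33.0%) and 14 of 57 at 30 h (24.6%, 14.1 to 37.8%), with overlapping intervals. Its cells ranged from 0 to 34.8 TPM at 6 h, 0 to 56.0 at 18 h, 0 to 129 at 24 h and 0 to 99.0 at 30 h, all with a median of 0. The means were 3.47 ± 9.96 TPM at 18 h, 4.47 ± 20.3 at 24 h and 4.32 ± 14.2 at 30 h, against 2.78 ± 6.37 TPM at 6 h. At every one of these times Sox2 failed the filter on low values, which asks for 10 TPM or more on average and detection in 25% of cells at the time point with the higher mean, so no call was made.

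In order of share, Pou5f1 stood above Nanog and Nanog above Sox2 at 6, 18, 24 and 30 h. The intervals of Pou5f1 and Nanog did not overlap at 6, 18 and 24 h and did at 30 h (37.3 to 64.4% for Pou5f1, 30.7 to 57.6% for Nanog). Those of Nanog and Sox2 did not overlap at 18 h and overlapped at 6, 24 and 30 h. The mean of Nanog exceeded that of Pou5f1 at 30 h, 61.2 against 53.4 TPM, but not without the highest cell of each, 37.3 against 46.2 TPM.

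**Figure D2:**
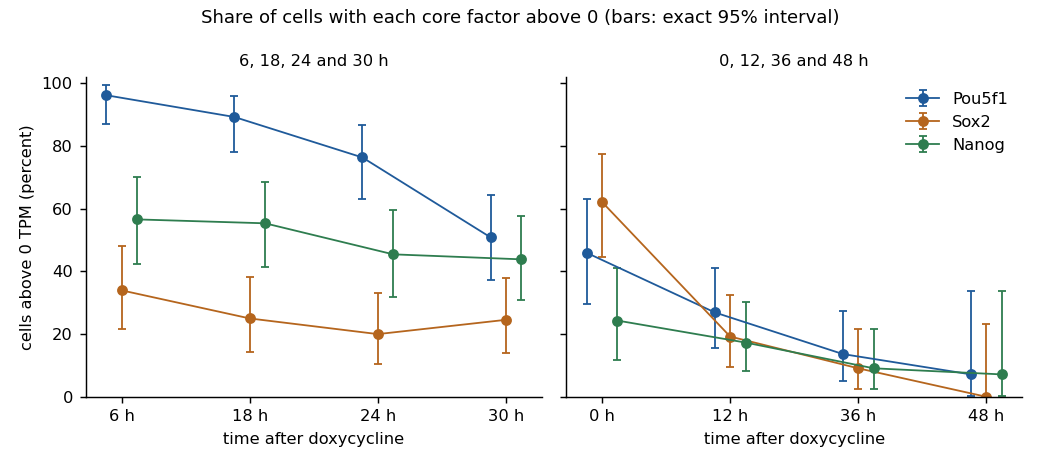
The y axis is the percentage of kept cells above 0 TPM and the x axis the time after doxycycline, with 1 line for each factor and bars for the exact 95% interval. In the left panel Pou5f1 goes through 96.2%, 89.3%, 76.4% and 50.9% while Nanog stays between 43.9 and 56.6% and Sox2 between 20.0 and 34.0%; in the right panel all 3 lie below 15% at 36 and 48 h, where cells are shallow.

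In the other set, Sox2 was lower at 12 h than in uninduced cells, in share and in level. The 52 cells at 12 h ranged from 0 to 103 TPM with a median of 0, and the 37 cells at 0 h from 0 to 347 TPM with a median of 4.11. Sox2 was above 0 in 10 of 52 cells (19.2%, 9.63 to 32.5%) at 12 h, and in 23 of 37 (62.2%, 44.8 to 77.5%) at 0 h, intervals that do not overlap. The 12 h mean of 6.76 ± 20.8 TPM against the 0 h mean of 36.8 ± 72.3 TPM gave a log2 fold change of -2.28, or 4.87-fold lower, where 13% of 5848 passing genes were at least 2-fold lower and 17% at least 2-fold higher. Cells were shallower at 12 h (median 4269 genes against 5304 at 0 h). Hprt was above 0 in 15.4% of cells at 12 h and 10.8% at 0 h. The 12 h cells averaged 16.7 TPM of Hprt and the 0 h cells 1.32 TPM. In cells with at least 4000 genes Sox2 was above 0 in 27.3% at 12 h and 64.5% at 0 h.

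Pou5f1 did not share this difference in level. It ranged from 0 to 502 TPM at 12 h and from 0 to 317 TPM at 0 h, with medians of 0 in both. It was above 0 in 14 of 52 cells (26.9%, 15.6 to 41.0%) at 12 h, and in 17 of 37 (45.9%, 29.5 to 63.1%) at 0 h, with overlapping intervals. The 12 h mean of 31.9 ± 94.8 TPM against the 0 h mean of 30.0 ± 61.6 TPM gave a log2 fold change of 0.09, which was -2.22 when the shallow cells were added. Nanog was above 0 in 9 of 52 cells (17.3%, 8.23 to 30.3%) at 12 h, and in 9 of 37 (24.3%, 11.8 to 41.2%) at 0 h. Its mean of 12.2 ± 75.1 TPM at 12 h came to 85.2% from 1 cell with 541 TPM and was 1.85 TPM without it, against 1.61 ± 4.99 TPM at 0 h. In uninduced cells the mean of Sox2 was thus above that of Pou5f1 by less than the spread between cells, and Nanog was lowest.

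At 36 and 48 h the factors were seen in few of the shallow cells. At 36 h Pou5f1 was above 0 in 6 of 44 cells (13.6%, 5.17 to 27.4%), Sox2 in 4 (9.09%, 2.53 to 21.7%) and Nanog in 4. Of the 6 Pou5f1 cells 3 held 1875, 1586 and 492 TPM and gave 95.1% of the sum, so the mean of 94.5 ± 371 TPM describes those cells and not the time point. Sox2 had a mean of 10.2 ± 40.0 TPM at 36 h and Nanog 1.37 ± 5.15 TPM. At 48 h 1 of 14 cells held Pou5f1, at 19.5 TPM, another held Nanog, at 36.0 TPM, and Sox2 was listed at 0 in all 14, which allows a share of up to 21.4%.

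The factors were also counted in each cell. In the 6 to 30 h set, cells with none of the 3 above 0 numbered 0 of 53 at 6 h, which allows up to 5.66%, 4 of 56 at 18 h (7.14%), 9 of 55 at 24 h (16.4%) and 19 of 57 at 30 h (33.3%, 21.4 to 47.1%). Their median number of genes was low at 18 h (3297), while 6655 and 6379 at 24 and 30 h lay close to the 6676 and 6481 of all kept cells. Cells with all 3 numbered 8, 8, 7 and 6 at 6, 18, 24 and 30 h. In the other set the share with none was 16.2, 51.9, 72.7 and 85.7% at 0, 12, 36 and 48 h, and 2 cells at 12 h and 1 at 0 h had all 3.

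**Figure D3:**
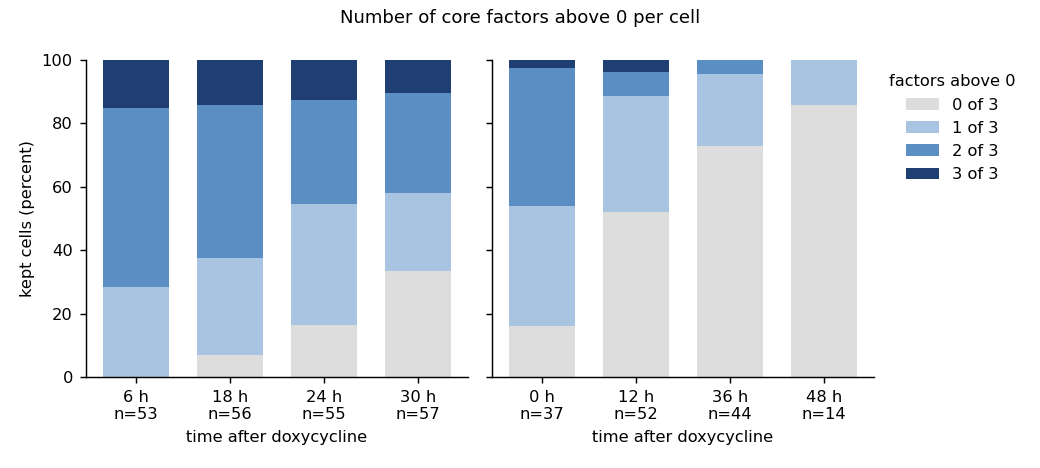
Stacked bars give the percentage of kept cells (y axis) with 0, 1, 2 or 3 core factors above 0 at each time after doxycycline (x axis). Cells with none make up 33.3% at 30 h, while none of the 53 cells at 6 h lacked all 3; cells with all 3 make up 10.5% at 30 h and 15.1% at 6 h.

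At 30 h Pou5f1 and Nanog stood in the same cells more often than the product of their single shares gives, which was not so at 6 h. Pou5f1 at 30 h was above 0 in 19 of 25 Nanog-positive cells (76.0%, 54.9 to 90.6%) and in 10 of 32 Nanog-zero cells (31.2%, 16.1 to 50.0%), and these intervals do not overlap. The median number of genes was 6598 in the Nanog-positive cells and 6469 in the Nanog-zero cells. The 19 cells with both compare with 12.7 given by the product of the single shares. The mean of Pou5f1 was 94.5 ± 128 TPM in Nanog-positive and 21.3 ± 56.1 TPM in Nanog-zero cells.

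The difference held in direction on either side of the median depth at 30 h. Among cells with more genes than the median, Pou5f1 was above 0 in 84.6% of 13 Nanog-positive and 53.3% of 15 Nanog-zero cells. Among the others it was above 0 in 66.7% of 12 Nanog-positive and 11.8% of 17 Nanog-zero cells. At 24 h Pou5f1 was above 0 in 22 of 25 Nanog-positive (88.0%, 68.8 to 97.5%) and 20 of 30 Nanog-zero cells (66.7%, 47.2 to 82.7%). At 18 h the shares were 93.5% of 31 Nanog-positive and 84.0% of 25 Nanog-zero cells, where the Nanog-positive cells were deeper (median 7840 against 6441 genes). At 6 h, when nearly all cells held Pou5f1, they were 93.3% of 30 Nanog-positive and 100% of 23 Nanog-zero cells, and 28 cells held both against a product of 28.9. Whether the 30 h difference exceeds that at 6 h was not tested.

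Sox2 detection went with Pou5f1 less clearly. At 6 h all 18 Sox2-positive cells held Pou5f1, at 411 ± 199 TPM, and 33 of 35 Sox2-zero cells did, at 254 ± 221 TPM. The median number of genes was 7557 in Sox2-positive and 7366 in Sox2-zero cells. At 30 h Pou5f1 was above 0 in 10 of 14 Sox2-positive cells (71.4%, 41.9 to 91.6%) and 19 of 43 Sox2-zero cells (44.2%, 29.1 to 60.1%), but the Sox2-positive cells were deeper, with a median of 7185 against 6399 genes. Among cells above the median depth the shares were 70.0% of 10 Sox2-positive and 66.7% of 18 Sox2-zero cells. Sox2 and Nanog were both above 0 in 7 cells at 30 h, against a product of 6.14.

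In uninduced cells Pou5f1 was not the more frequent in cells with another core factor. At 0 h Pou5f1 was above 0 in 10 of 23 Sox2-positive (43.5%, 23.2 to 65.5%) and 7 of 14 Sox2-zero cells (50.0%, 23.0 to 77.0%). It was above 0 in 3 of 9 Nanog-positive (33.3%, 7.49 to 70.1%) and 14 of 28 Nanog-zero cells (50.0%, 30.6 to 69.4%). At 12 h Pou5f1 was above 0 in 5 of 9 Nanog-positive cells (55.6%, 21.2 to 86.3%) and 9 of 43 Nanog-zero cells (20.9%, 10.0 to 36.0%), with overlapping intervals.

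**Figure D4:**
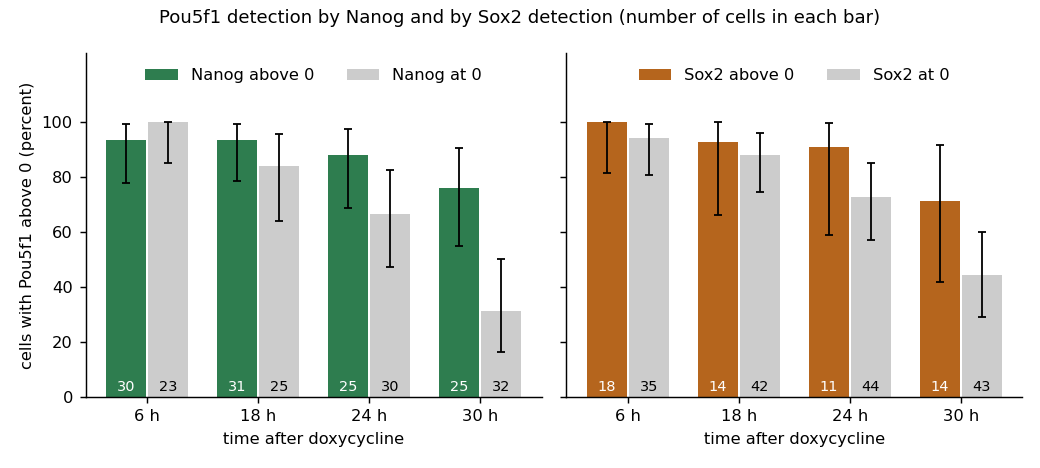
Bars give the percentage of cells with Pou5f1 above 0 (y axis) among cells with Nanog (left panel) or Sox2 (right panel) above 0, coloured, beside cells in which that factor is at 0, grey, at 6, 18, 24 and 30 h (x axis). Numbers in the bars are cells and error bars exact 95% intervals; the 30 h pair for Nanog, 76.0% and 31.2%, is the only one whose intervals do not overlap.

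Likeness between genes over cells was measured as the Spearman correlation with the number of genes per cell removed, within each time point, averaged over 6, 18, 24 and 30 h. It is given as a description, since the cells of a time point share a plate and a depth. Pou5f1 and Nanog correlated at 0.18, 0.30, 0.41 and 0.55 at 6, 18, 24 and 30 h (n = 53, 56, 55 and 57 cells), with an average of 0.36. These values were ranked among 4055 named genes, which passed the level filter at all 4 times or were core factors, kept whatever their level. Pou5f1 was the third most like Nanog, and Nanog was at place 37 for Pou5f1. Pou5f1 and Sox2 correlated at 0.38, 0.10, 0.14 and 0.12, with an average of 0.19, and Sox2 and Nanog at 0.07 on average. Among the same 4055 genes Pou5f1 was at place 32 for Sox2, and Sox2 at place 587 for Pou5f1. In the other set the values changed sign between time points. Pou5f1 and Nanog correlated at 0.24 at 12 h and -0.20 at 0 h, Sox2 and Nanog at 0.20 at 12 h and -0.08 at 0 h, and Pou5f1 and Sox2 at 0.01 at 12 h and -0.07 at 0 h.

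The genes most like Pou5f1 over cells were Mcm5, a subunit of the replicative helicase (average 0.48), the signalling ligand Nodal (0.45), its inhibitor Lefty1 (0.45), the nucleolar protein gene Nolc1 (0.44) and the glycolytic enzyme gene Eno1 (0.43). The genes most like Nanog were Trh, which encodes thyrotropin-releasing hormone (0.45), Lefty1 (0.41), Pou5f1, the amino acid transporter gene Slc7a3 (0.35) and the purine synthesis gene Gart (0.34). At 30 h Lefty1 was above 0 in 15 of 25 Nanog-positive cells (60.0%, 38.7 to 78.9%) and 8 of 32 Nanog-zero cells (25.0%, 11.5 to 43.4%). Trh was above 0 in 17 of 25 Nanog-positive cells (68.0%, 46.5 to 85.1%) and 11 of 32 Nanog-zero cells (34.4%, 18.6 to 53.2%).

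At the other end, Pou5f1 was least like Tmsb4x, an actin-binding thymosin (-0.36), the nuclear RNA Malat1 (-0.36), the collagen gene Col1a2 (-0.32), the reticulon Rtn1 (-0.30) and the adhesion gene Cadm1 (-0.30). Nanog was least like Malat1 (-0.40), Rtn1 (-0.39), Gap43, a growth cone protein gene (-0.37), Nrep (-0.37) and Tmsb4x (-0.35). Col1a2 is also a fibroblast gene, and the summed level of 7 fibroblast markers was 23.2 to 31.4 TPM at 6, 18, 24 and 30 h, of which Col1a2 itself made 21.1 TPM at 6 h. Col3a1 and Postn were at 0 at all 4 times, while at 6 h Thy1, Dcn and Col1a1 were above 0 in 15.1%, 11.3% and 9.43% of cells. The part of such cells in these correlations was not tested. The genes most like Sox2 were Rpa2 (0.27), H2az2 (0.26), Mid1ip1 (0.26), Abhd11 (0.25) and Ube2t (0.25), and the least like were Ercc1 (-0.24), Clvs1 (-0.23), Baz2a (-0.23), Srrm4 (-0.22) and Pitrm1 (-0.22), values too weak in such sparse data to be read as a pattern.

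**Figure D5:**
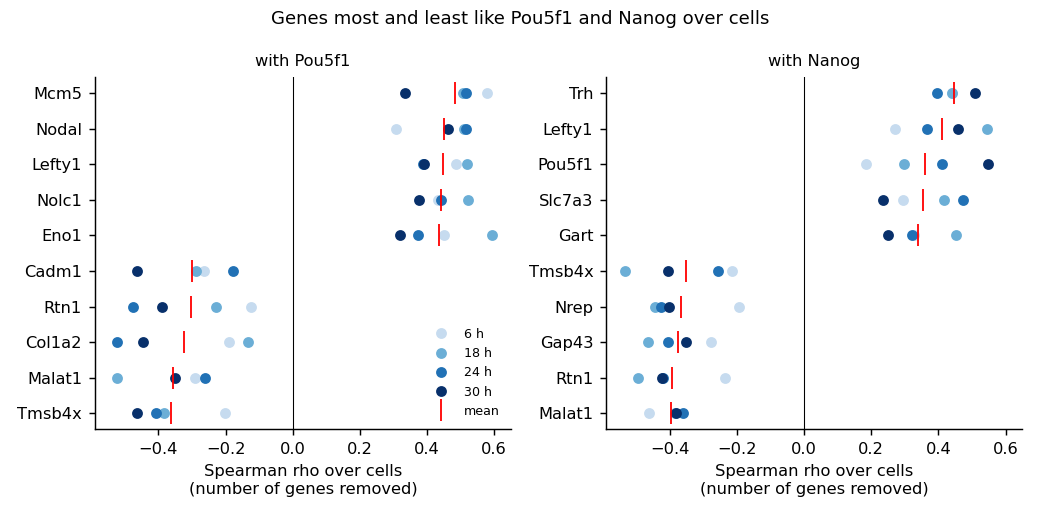
For Pou5f1 (left) and Nanog (right) the 5 genes with the highest and the 5 with the lowest average correlation over cells are shown (y axis), with the Spearman correlation at 6, 18, 24 and 30 h as points and the average as a red tick (x axis). Every point of these 20 pairs lies on the same side of 0 as its average, which the choice by extreme averages favours. The point of Pou5f1 with Nanog is 0.55 at 30 h and 0.18 at 6 h.

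Read by lists, other genes of the pluripotent state went with Pou5f1 over cells and pan-neuronal genes against it. All 10 pluripotency genes that passed the level filter correlated above 0 with Pou5f1 (median 0.21), while 70.5% of 4053 genes did (median 0.06). The highest of the 10, named after their values were seen, were Tdgf1, a Nodal co-receptor (0.40), Dppa5a (0.35) and the DNA methyltransferase gene Dnmt3b (0.35). With Nanog 7 of 10 correlated above 0 (median 0.13), against 48.9% of all genes. All 5 pan-neuronal genes that passed the filter correlated on average below 0 with Pou5f1 (median -0.17), with Nanog (-0.27) and with Sox2 (-0.08). With Sox2 56.1% of all genes correlated above 0 (median 0.01). Single times did not always share the direction, as at 6 h all 5 correlated above 0 with Sox2 (0.01 to 0.20). Of the induced factors Isl1 and Lhx3 passed, and both correlated on average below 0 with each core factor, at a median of -0.22 for Nanog and -0.17 for Pou5f1. At 6 h, however, they correlated with Sox2 at 0.06 and 0.23.

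At 30 h counts of cells gave examples, for genes chosen after their values were seen. The pluripotency list did not share one direction at 30 h, since Otx2 and Sall4 correlated with Pou5f1 at -0.37 and -0.16. Gdf3, a growth factor of the pluripotent state, was above 0 in 13 of 29 Pou5f1-positive cells (44.8%, 26.4 to 64.3%) and 2 of 28 Pou5f1-zero cells (7.14%, 0.877 to 23.5%). Gap43 was above 0 in 18 of 29 Pou5f1-positive cells (62.1%, 42.3 to 79.3%) and 26 of 28 Pou5f1-zero cells (92.9%, 76.5 to 99.1%). The median number of genes was 6710 in Pou5f1-positive and 6320.5 in Pou5f1-zero cells.

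Among the 7 genes with known composite Oct4-Sox2 elements, Fgf4, Utf1, Fbxo15, Lefty1, Nanog, Pou5f1 and Sox2, directions were mixed. At 30 h against 6 h 5 passed the filter and 3 were at least 2-fold lower, where 6.03% of all genes were. The 3 were Utf1, a chromatin factor gene (7.29 TPM at 30 h, 63.7 at 6 h), Pou5f1 itself and Fbxo15 (2.69 TPM at 30 h, 16.6 at 6 h). Lefty1 was higher (138 ± 370 TPM at 30 h, 52.9 ± 181 at 6 h), where 13.9% of all genes were at least 2-fold higher. At 12 h against 0 h 6 passed and 3 were at least 2-fold lower, where 13% of all genes were lower and 17% higher. The 3 were Fgf4, a growth factor (1.56 ± 8.21 TPM at 12 h, 99.4 ± 199 at 0 h, log2 fold change -5.30), Sox2 and Utf1 (568 TPM at 12 h, 2434 at 0 h). Fbxo15 (16.9 TPM at 12 h, 1.25 at 0 h) and Lefty1 (244 TPM at 12 h, 69.2 at 0 h) were higher in mean only, since each was above 0 in 25.0% of cells at 12 h and 29.7% at 0 h.

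Among the cofactors of Pou5f1 and Sox2, the chromatin partners stayed close to the rest of the transcriptome at 30 h against 6 h. Of 19 chromatin partners 15 passed at 30 h against 6 h and none was 2-fold different (median log2 fold change 0.19, all genes 0.20). Of all genes 6.03% were at least 2-fold lower there and 13.9% higher. Chd4, the helicase of the NuRD complex, had 57.7 TPM at 30 h, against 41.2 TPM at 6 h. At 12 h against 0 h all 19 passed, 2 were lower, Mta2 (3.88 TPM at 12 h, 24.4 at 0 h) and Chd4 (63.7 TPM at 12 h, 146 at 0 h), and 2 higher, Mta1 and Ogt. Of all genes 13% were lower and 17% higher, and neither count lies above those shares. Mta2 was lower in mean only, since it was above 0 in 38.5% of cells at 12 h and 35.1% at 0 h. Of 18 transcription factor partners 4 passed at 30 h against 6 h, none was 2-fold lower and 1 was at least 2-fold higher. Sall4 had 74.3 TPM at 30 h and 72.8 at 6 h. At 12 h against 0 h 8 of them passed and none was 2-fold lower, while E2f1 (17.8 TPM at 12 h, 3.97 at 0 h) and Stat3 (51.1 TPM at 12 h, 19.6 at 0 h) were among those that were higher.

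Relatives of the core factors with the same DNA-binding domains mostly failed the filter on low values. At 0 and 12 h, however, Pou3f1 averaged 210 and 130 TPM, more than any core factor at those times. It was above 0 in 97.3% of cells at 0 h and 90.4% at 12 h. Sox11 averaged 50.7 TPM at 0 h and 61.6 TPM at 12 h. Of 13 other POU genes only Pou2f1 passed at 30 h against 6 h (28.9 TPM at 30 h, 26.1 at 6 h), and 4 passed at 12 h against 0 h, with Pou4f1, a neuronal factor, higher (23.8 TPM at 12 h, 3.09 at 0 h) and Pou2f1 lower. At 12 h against 0 h 17% of all genes were at least 2-fold higher and 13% lower. Of 17 other SOX genes only Sox11, a factor of young neurons, passed at 30 h against 6 h and was higher (12.0 TPM at 30 h, 2.05 at 6 h, log2 fold change 2.10). In that comparison 13.9% of all genes were at least 2-fold higher. At 12 h against 0 h Sox4, Sox11 and Sox12 passed and none differed 2-fold.

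Of 18 other genes of the pluripotent state 14 passed at 30 h against 6 h, 8 were at least 2-fold lower and 1 higher, with a median log2 fold change of -1.23 against 0.20 for all genes, of which 6.03% were at least 2-fold lower and 13.9% higher. Examples were Dppa2 (8.14 TPM at 30 h, 107 at 6 h), Gdf3 (11.5 TPM at 30 h, 62.8 at 6 h) and L1td1 (12.7 TPM at 30 h, 44.5 at 6 h). At 12 h against 0 h 14 passed, 6 were lower and none higher (median -0.86), where 13% of all genes were lower and 17% higher, among them Tdgf1 (3.57 TPM at 12 h, 107 at 0 h).

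Marker genes of other fates gave the following counts beside the core factors. At 30 h against 6 h 5 of 10 neural progenitor genes passed and all 5 were higher, among them Pax6 (41.2 TPM at 30 h, 15.3 at 6 h), and 9 of 11 passing pan-neuronal genes were higher, led by Stmn2 (124 TPM at 30 h, 9.57 at 6 h), where 13.9% of all genes were at least 2-fold higher. Of the induced factors Isl1 was higher (40.8 TPM at 30 h, 12.4 at 6 h). The trophectoderm list gave 2 passing genes, both higher, the keratins Krt8 and Krt18. Of its other genes Cdx2 was at 0 at both times, Elf5 was above 0 in 56.1% of cells at 30 h and 62.3% at 6 h, and Eomes in 10.5% at 30 h and 13.2% at 6 h. No primitive endoderm gene passed, 1 mesoderm gene did, T (49.3 TPM at 30 h, 0.314 at 6 h), 1 fibroblast gene, Col1a2, which did not differ 2-fold, and 1 germ cell gene, Dazl (7.09 TPM at 30 h, 18.0 at 6 h). The part of these cells in the core factor values was not tested.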

How the data were processed

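SMART-Seq2 libraries of 768 cells, 96 at each of 8 time points, were sequenced as single reads (50 bp, and on average 325000 per cell per the labels). The authors deposited TPM values in 1 table of 27723 genes, whose columns sum to 1000000 within rounding. TPM keeps no depth, so the number of genes above 0 stood in for it. Per the submitters' processing notes, bcl2fastq, Picard and the mm10 genome were used. Sample names in the labels and in the table end in rsem, which is also the name of a tool that estimates expression. No source used here gives its version, the aligner or the annotation. The labels speak of 2 library batches without assigning cells to them.

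The cell filter was 2000 genes above 0. Means, SDs, shares with exact 95% intervals and log2 ratios of (mean + 1) were computed. For low genes that scale understates a change. Genes passed with a mean of at least 10 TPM and detection in 25% of cells at the time point with the higher mean. Correlations were partial Spearman correlations on ranks. Beside a share of 0 stands its limit, 3 divided by the cells examined. The members and lists were chosen with earlier results of these data known. Named were the 3 members, the Oct4-Sox2 targets, up to 4 passing members of each other list by size of change, the 5 highest and lowest correlations, and Sod1, Gapdh and Hprt. A gene of the partner list is not reported here. Genes outside this rule are said to be chosen after their values were seen. List genes were matched by symbol (150) or synonym (3), and current names of older symbols came from RefSeq. Alternatives were other pseudocounts, rescaled means, medians, other cell filters, odd-numbered or even-numbered cells, stricter detection, no filter on low values and other correlations. Folds and correlations were tested on simulated data. The tools were scipy 1.17.1, numpy 2.4.6 and pandas 2.3.3 in Python 3.11.15, with figures from matplotlib 3.10.9.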

Additional observations from a re-analysis of the deposited data

Results flagged for a closer look

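The core factors also appeared in the 400 cells left out for having fewer than 2000 genes above 0, which enter no comparison. Pou5f1 was above 0 in 29 of them (7.25%, exact 95% interval 4.91 to 10.2%), Nanog in 15 (3.75%, 2.11 to 6.11%) and Sox2 in 8 (2.00%, 0.867 to 3.90%). These cells had a median of 406 genes, and the highest values in them were 34683 TPM for Pou5f1, 3264 for Nanog and 1530 for Sox2.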

How the results depend on the processing

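No paired analysis was possible because each time point was 1 sample and the result comes from no test. Fold changes were counted as moved at 1.5-fold. Over all cells the log2 fold change at 12 h against 0 h was -2.22 for Pou5f1, and the shares were 32.3% (Pou5f1, 30 h), 60.4% (Pou5f1, 6 h), 27.1% (Nanog, 30 h), 33.3% (Nanog, 6 h), 24.0% (Sox2, 0 h) and 15.7% (Pou5f1 in Nanog-zero cells, 30 h). The log2 fold change of Nanog at 30 h against 6 h was -1.10 over all cells, -1.13 with 1000 genes, 0.55 with 4000 genes, 0.83 with 4000 to 8000 genes, 0.90 in even-numbered cells, -2.65 from medians and 0.50 without the highest cells. That of Sox2 at 12 h against 0 h was -1.48 with a pseudocount of 10 TPM, and that of Pou5f1 at 30 h against 6 h was -4.78 from medians. The 30 h median of Pou5f1 was its lowest value above 0. The Pou5f1 share at 6 h was 100% with 4000 genes, with 4000 to 8000 genes and in even-numbered cells, where 5 pluripotency genes were 2-fold lower at 30 h. With detection at 10 TPM the Sox2 share at 0 h was 37.8%. Among the 1000 highest genes of a cell, shares were 15.8% and 71.7% for Pou5f1 at 30 and 6 h, 15.8% and 5.66% for Nanog at 30 and 6 h, 0% and 5.41% for Sox2 at 12 and 0 h, and 44.4% and 10.4% for Pou5f1 in Nanog-positive and Nanog-zero cells at 30 h. The correlation of Sox2 with Nanog was -0.011 in odd-numbered cells. The causes were not tested. Of 308 alternative values 256 did not move. All 145 recomputed correlations of named partners kept their sign. Those partners were picked as the highest and lowest in these same cells, so the kept sign is no independent check. With 1 plate per time point, differences between plates cannot be told apart from time.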

Other observations

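Hes5 and Fabp7, genes of neural progenitors, were higher in Sox2-positive than in Sox2-zero cells at 30 h, and both were picked from the lists after their values were seen. The neural progenitor list did not share one direction, since Notch1, Hes1 and Vim correlated with Sox2 at -0.19, -0.09 and -0.07 over the 57 cells at 30 h. Hes5, a Notch target of neural progenitors, was above 0 in 7 of 14 Sox2-positive cells (50.0%, exact 95% interval 23.0 to 77.0%) and 1 of 43 Sox2-zero cells (2.33%, 0.0589 to 12.3%). At 24 h Hes5 was above 0 in 3 of 11 Sox2-positive and 7 of 44 Sox2-zero cells (27.3% and 15.9%), so the 30 h gap was not seen there at the same size. Fabp7, a radial glia gene, averaged 417 ± 558 TPM in Sox2-positive and 101 ± 156 TPM in Sox2-zero cells at 30 h, and 224 TPM in Sox2-positive and 81.3 TPM in Sox2-zero cells at 24 h. Pax6 gave no one direction at 30 h, with means of 36.5 ± 33.8 TPM in Sox2-positive and 42.7 ± 67.8 TPM in Sox2-zero cells, medians of 40.7 TPM in Sox2-positive and 15.3 TPM in Sox2-zero cells, and shares above 0 of 78.6% in Sox2-positive and 72.1% in Sox2-zero cells. Syt1, a synaptic vesicle gene of the pan-neuronal list, was also picked after its values were seen. It was above 0 in 0 of 14 Sox2-positive cells, so that up to 21.4% remains possible at this count, and in 12 of 43 Sox2-zero cells (27.9%, 15.3 to 43.7%). At 30 h Stmn3, Tubb3, Dpysl3, Gap43 and Ina, the pan-neuronal genes that passed the level filter, correlated with Sox2 at -0.28, -0.24, -0.19, -0.07 and 0.02. The Sox2-positive cells were deeper, with a median of 7185 against 6399 genes, and the part of depth in these values was not tested.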
